A study of Schmidtea mediterranea with 12 samples.

Results

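Transcript levels were compared between the medial and the lateral intestine of the freshwater planarian *Schmidtea mediterranea*, from 8 of the 12 libraries of the series: 4 of medial and 4 of lateral intestine, chosen by their labels. The other 4 libraries, of tissue outside the intestine (non-intestine), gave a reference level. They were also part of the fitted model, so they entered the filter, the scaling and the spread behind each test. All tissue came from uninjured adults of the asexual clonal line CIW4, between 6 and 9 mm long and starved for 7 days. Animals were relaxed in magnesium chloride, fixed in methacarn, cryosectioned at 20 µm and stained with Eosin Y, and the 3 tissues were cut by laser from sections of the region anterior to the pharynx. Each of 4 animals gave 1 library of each tissue, so the replicate number identifies the animal. The tests remove each animal's overall level, so p-values measure how differences between tissues vary among these 4 animals and their captures. Because the animals are clones, this spread is among animals of 1 line. Of total RNA, 5 ng went into each library, prepared by a 3′ mRNA method that reads only the end of each transcript beside its poly(A) tail. The 8 intestinal libraries held between 20416476 and 33296270 mapped reads.

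The planarian intestine is a blind-ended, branching gut. Primary branches run along the midline and give off secondary, tertiary and finer branches toward the body margin. Its absorptive phagocytes take up food particles and digest them inside the cell, its goblet cells are gland cells that release their products into the lumen, and a further class of cells lies at the base of the epithelium. The direct comparison of medial with lateral tissue asks which of these activities are unevenly placed along the mediolateral axis.

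Levels are given as CPM, read counts relative to the library total, scaled by trimmed mean of M values (TMM) factors, with values for single libraries in the order of animals 1 to 4. A transcript was tested if it reached 1 CPM in at least 4 of the 12 libraries, and 13136 of 28069 transcripts (46.8%) did. It was called higher in a region if the false discovery rate (FDR) of edgeR's quasi-likelihood test, with the animal as a block, was under 0.05 and the fold change was above 1.5. It was called intestine-enriched if both regions together were more than 2-fold above non-intestine at an FDR under 0.01, and 1613 transcripts (12.3% of those tested) were. All fold changes are of medial over lateral intestine, on the log2 scale unless a fold is named, so negative values mean higher in lateral intestine. In bulk tissue, a lower level from fewer cells of a type and one from less RNA per cell cannot be told apart.

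The captured tissue was checked with markers of phagocytes, basal cells and goblet cells. *ctsla* (dd_267), a cathepsin L of phagocytes, had 2285 ± 559 CPM (SD, n = 4) in the medial and 2172 ± 812 CPM in the lateral libraries, against 41.7 ± 15.0 CPM in non-intestine. The basal cell marker *slc22a6* (dd_1159), an organic anion transporter, was at 148 ± 30.8 CPM in medial, 177 ± 63.7 CPM in lateral and 5.01 ± 1.58 CPM in non-intestine. Both were intestinal, and edgeR's quasi-likelihood test called neither between the regions (log2 fold change 0.15, FDR = 0.989, and −0.18, FDR = 0.959). The general goblet markers had higher means in medial intestine. *Npc2* (dd_73) measured 2299 ± 621 CPM in medial, 1102 ± 166 CPM in lateral and 27 ± 10.6 CPM in non-intestine, and *pi16* (dd_2021) 120.5 ± 13.4, 48.4 ± 11.1 and 0.550 ± 0.290 CPM. Neither passed edgeR's quasi-likelihood test (FDR = 0.129 and 0.125), while their medial and lateral libraries did not overlap.

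Most transcripts of the intestine had similar levels in both regions. Of the 1613 intestine-enriched transcripts, 1480 (91.8%) had a fitted difference within 1.5-fold, and for 412 (25.5%) the whole 95% confidence interval lay within 1.5-fold. The median log2 fold change of this set was 0.10, against −0.04 over all transcripts tested. Among all 13136 transcripts, 57 (0.434%) were called higher in medial intestine and 27 (0.206%) higher in lateral intestine, or 84 (0.639%) in either direction. The intestine-enriched set held 19 of the former (1.18% of the set) and 8 of the latter (0.496%). These shares are the reference for each count of called list members below. At an unadjusted p under 0.05 there were 344 transcripts higher in medial and 582 higher in lateral intestine. With no true difference, about 1 in 20 of all tests would give such a p, in either direction. Of the 344 and the 582, 71 and 315 were more than 2-fold higher in non-intestine than in both regions together, at an FDR under 0.01. Of all 13136 transcripts tested, 1725 were.

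**Figure D1:**
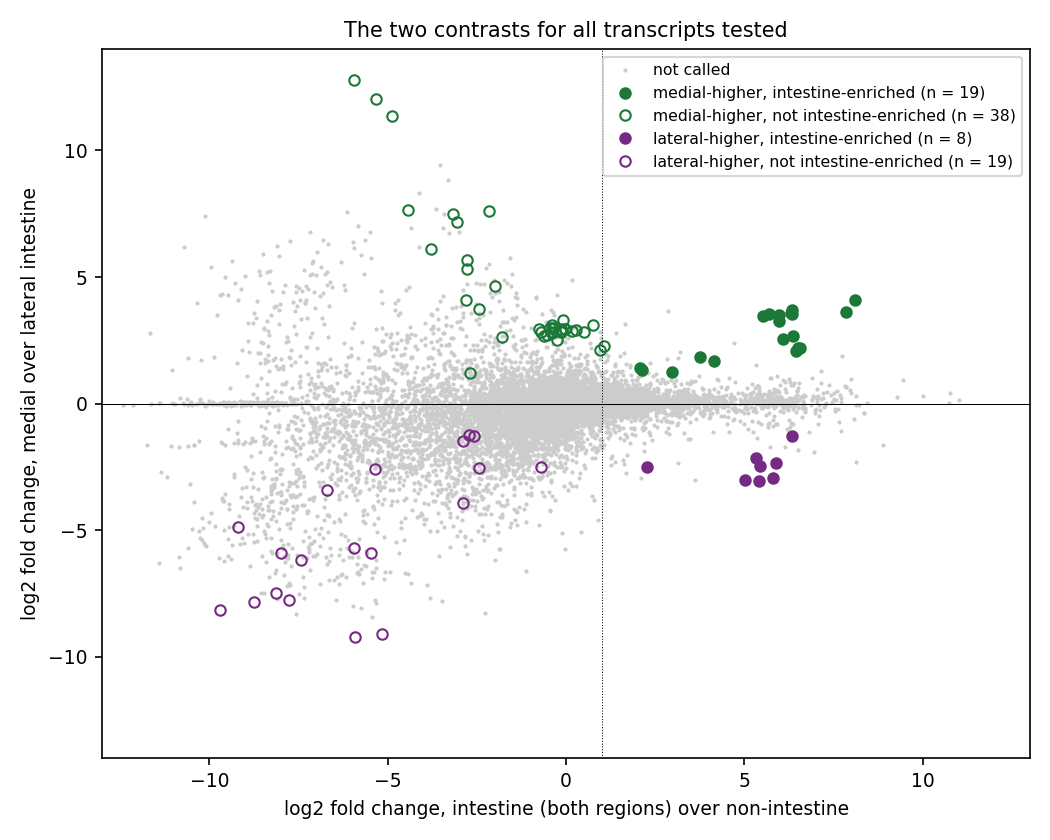
Each point is 1 of the 13136 transcripts tested, with the log2 fold change of both intestinal regions over non-intestine on the x axis and that of medial over lateral intestine on the y axis. Filled points mark the 19 medial-higher (green) and 8 lateral-higher (purple) intestine-enriched transcripts, open points the other 38 and 19 called transcripts, and the dotted line the 2-fold limit of intestine enrichment. Of the 1613 intestine-enriched transcripts, 1480 lie within 1.5-fold of 0 on the y axis.

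The 19 medial-higher intestine-enriched transcripts included proteases, a gastric lipase, lipid-binding proteins and the rapunzel family, and the 8 lateral-higher ones held 4 protease inhibitors and a nidogen homolog. Folds ran from 2.36 to 17.2 among the 19, with a median of 6.29, and from 2.45 to 8.30 among the 8, with a median of 5.61. In each of the 27 transcripts the 4 libraries of the higher region lay above the 4 of the other, and the direction was the same in 4 of 4 animals. Over all transcripts tested, such separation was seen for 178 (1.36%) with medial above and 310 (2.36%) with lateral above. The lower region still had a mean above that of non-intestine in all 27. Summed over the 19 transcripts, medial intestine was at 36615, 32271, 43059 and 33963 CPM and lateral intestine at 5411, 5408, 6396 and 5710 CPM. Summed over the 8, medial intestine was at 9917, 7680, 11453 and 10881 CPM and lateral intestine at 46022, 47449, 48904 and 42233 CPM. The sums of the 2 regions did not overlap in either set, and the animals gave ratios between 5.95 and 6.77 for the 19 and between 3.88 and 6.18, in the lateral direction, for the 8. Both sets were called by this difference in the same libraries. Neither the separation nor the sums are further evidence of it. The number of medial-higher intestine-enriched transcripts was 12 without animal 1, 12 without animal 4, 12 without lateral replicate 1 and 11 without lateral replicate 4, and 32 by DESeq2.

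**Figure D2:**
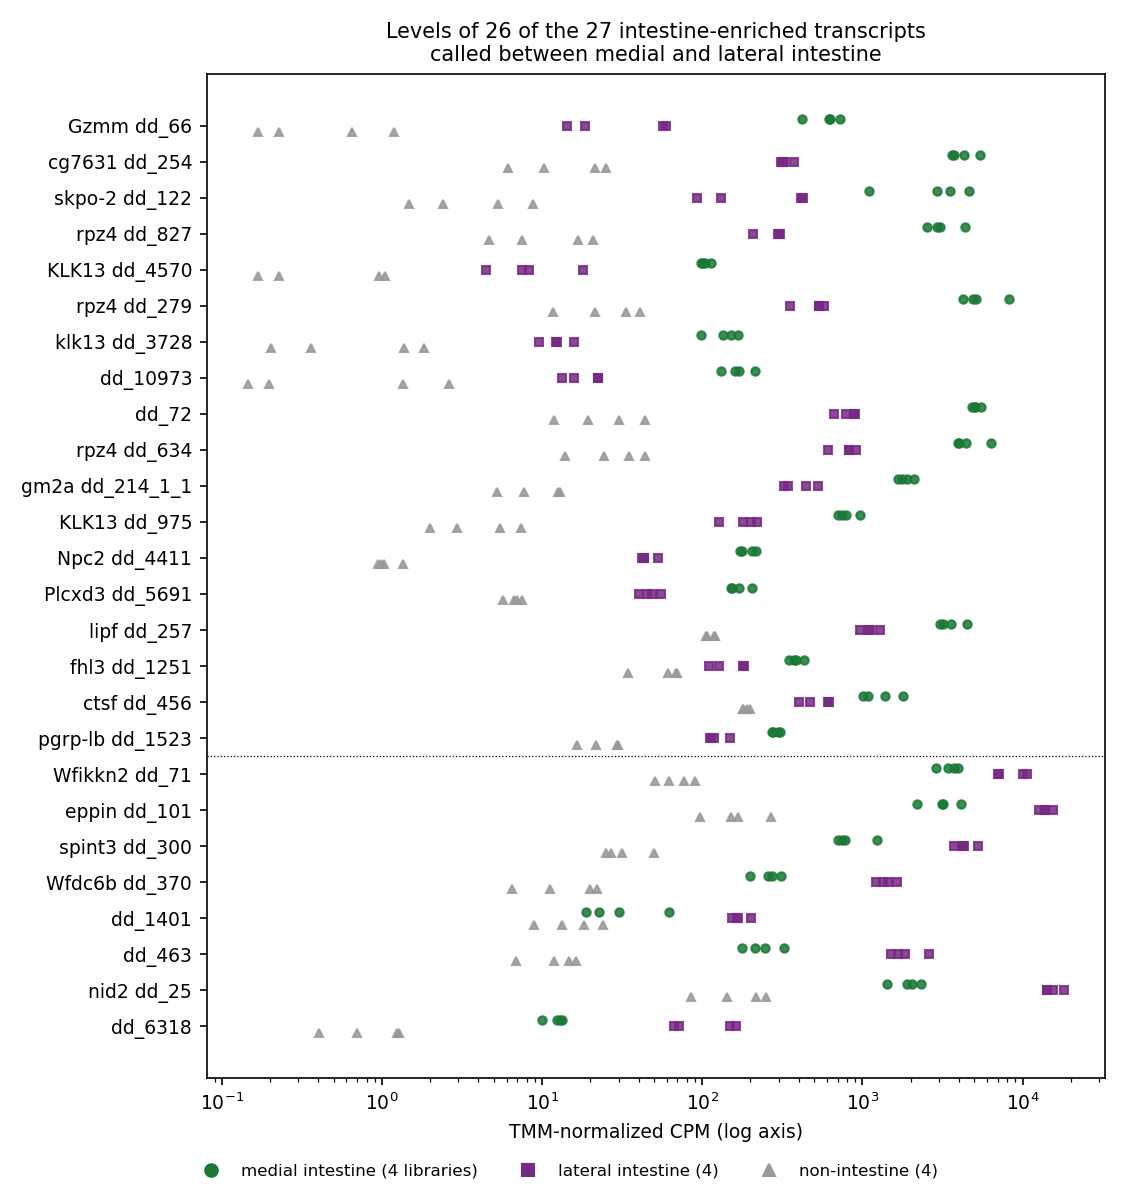
TMM-normalized CPM on a log axis of 26 of the 27 intestine-enriched transcripts called between the regions, with 1 point for each library: green circles for medial, purple squares for lateral intestine and grey triangles for non-intestine. Transcripts above the dotted line were medial-higher and those below it lateral-higher, and in all 26 the circles and the squares do not overlap.

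Trypsin-fold serine proteases, secreted enzymes that cut proteins in the gut lumen of many animals, were among the groups with several medial-higher calls. Of 12 members, 11 were tested, 5 were medial-higher and 0 lateral-higher, with 0 lateral-higher also by the likelihood ratio test and DESeq2 and at an unadjusted p under 0.05. Over all transcripts tested, 0.434% were called medial-higher and 0.206% lateral-higher. The median log2 fold change of the 11 was 1.55, against −0.04 over all transcripts, and 5 of the 11 lay within 1.5-fold. Some members, *Gzmm* below among them, had been selected by the study for their bias in these libraries. The counts and the median of the list are therefore no independent evidence of direction. *Gzmm* (dd_66), named for granzyme M and with human kallikrein 13 as its match, was at 721, 621, 419 and 630 CPM in medial and 14.2, 56.9, 59.6 and 18.4 CPM in lateral intestine. Even the lowest medial library was more than 5-fold above the highest lateral one, and the log2 fold change was 4.11 (SE 0.57, FDR = 0.00857), or 17.2-fold. Non-intestine libraries had between 0.169 and 1.20 CPM of this transcript. *KLK13* (dd_4570) was at 104, 98.7, 102 and 114 CPM in medial and 4.47, 8.22, 18 and 7.47 CPM in lateral intestine. Its medial level varied little among animals, while the lateral level ranged about 4-fold, and the log2 fold change was 3.54 (SE 0.53, FDR = 0.0117). The goblet cell transcript *klk13* (dd_3728) was at 134, 97.6, 152 and 166 CPM in medial and 9.58, 12.4, 15.8 and 12.3 CPM in lateral intestine (log2 fold change 3.46, SE 0.50, FDR = 0.0107). A further *KLK13* (dd_975) was at 748, 704, 964 and 787 CPM in medial and 178, 219, 201 and 126 CPM in lateral intestine (log2 fold change 2.19, SE 0.32, FDR = 0.0107). All 4 of these had separate medial and lateral libraries, and all 4 were intestine-enriched. Since reads were assigned to single transcripts, those of closely similar *KLK13* transcripts could be divided among them.

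The fifth medial-higher protease behaved differently. *TMPRSS5* (dd_1427), a transmembrane serine protease by name, was at 146, 672, 90.7 and 201 CPM in the medial libraries, 14.7, 166, 4.59 and 40.4 CPM in the lateral ones and 25.1, 211, 49.7 and 144 CPM in non-intestine. The regions overlapped and animals 2 and 4 were above animals 1 and 3 in each tissue, so the call (log2 fold change 2.88, FDR = 0.0171) rests on the comparison within animals, and it was lost without the block (FDR = 0.527). It was also lost without animals 1, 3 or 4, medial replicates 1, 2 or 3 or lateral replicates 1 or 4, at an FDR between 0.0503 and 0.132. The other 6 proteases were not called. *teq* (dd_790), matched to neurotrypsin, had 834 ± 37.8 CPM in the medial and 826 ± 186 CPM in the lateral libraries (log2 fold change 0.03, 95% interval −0.36 to 0.41), and *CELA1* (dd_198), an elastase higher outside the intestine, was at −0.21 (95% interval −0.74 to 0.33). The call of *Gzmm* was lost without animal 4 (FDR = 0.0945) and without lateral replicate 4 (FDR = 0.0811). That of dd_4570 was lost without animals 1, 2 or 4, medial replicate 4 or lateral replicates 1 or 4 (FDR between 0.0561 and 0.102), that of dd_975 without animals 1 or 4, medial replicate 3 or lateral replicates 1 or 4 (0.0517 to 0.137), and that of dd_3728 without animals 1 or 3, medial replicate 3 or lateral replicates 1 or 4 (0.0587 to 0.0796).

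Metal-dependent peptidases differed among themselves. *cg7631* (dd_254), an astacin-type metalloendopeptidase of goblet cells, was at 4317, 3644, 5431 and 3738 CPM in medial and 317, 309, 372 and 322 CPM in lateral intestine. The lateral libraries differed by less than 70 CPM, and the log2 fold change was 3.69 (SE 0.37, FDR = 0.00119). By contrast, *ct14378* (dd_31), a carboxypeptidase of goblet cells, was at 756, 499, 118 and 512 CPM in medial and 169, 1685, 949 and 266 CPM in lateral intestine. Animals 2 and 3 were higher in lateral and animals 1 and 4 higher in medial intestine, and its log2 fold change of −0.38 had a 95% interval from −1.95 to 1.18 (FDR = 0.986). A further *CT14378* (dd_2282) was at −0.34 and *ENPEP* (dd_2224), an aminopeptidase, at 0.03, neither of them called.

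Protease inhibitors, which block enzymes of the kinds above, had calls in the lateral direction. Members such as *eppin* and *spint3* were in situ probes, chosen with the levels of these libraries in view. The counts and the median of this list are likewise no independent evidence of direction. Of 11 members tested, 4 were lateral-higher and 0 medial-higher, against 0.206% and 0.434% of all transcripts tested. In the medial direction, 1 member had an unadjusted p under 0.05, with 0 medial-higher by the likelihood ratio test and by DESeq2. Their median log2 fold change was −1.01, and their summed level was between 9891 and 13469 CPM in the medial libraries and between 30842 and 38890 CPM in the lateral ones. *eppin* (dd_101), a goblet cell transcript whose vertebrate namesake carries WAP and Kunitz inhibitor domains, was at 3176, 2181, 4154 and 3120 CPM in medial and 13899, 12649, 15409 and 13735 CPM in lateral intestine. The lateral libraries were even across animals, while the medial ones ranged from 2181 to 4154 CPM. Every lateral library lay above every medial one, and the log2 fold change was −2.17 (SE 0.24, FDR = 0.00198). *spint3* (dd_300), a Kunitz-type inhibitor of goblet cells, was at 741, 700, 777 and 1241 CPM in medial and 3712, 5280, 4320 and 4261 CPM in lateral intestine. Animal 4 was the highest of the medial libraries and still far below every lateral library, and the log2 fold change was −2.35 (SE 0.25, FDR = 0.00153). *Wfdc6b* (dd_370), named for a WAP-domain protein, was at 257, 197, 272 and 312 CPM in medial and 1211, 1653, 1435 and 1335 CPM in lateral intestine (log2 fold change −2.46, SE 0.28, FDR = 0.00226). *Wfikkn2* (dd_71), named for a protein with several inhibitor domains, was at 3413, 2886, 3711 and 3935 CPM in medial and 7162, 10669, 10020 and 7033 CPM in lateral intestine. The difference was the smallest of the 4, at −1.29 (SE 0.18, FDR = 0.00889), and its call was lost without animals 1 or 3 or lateral replicate 1 (FDR = 0.0583, 0.0674 and 0.0518).

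The other 7 inhibitors were not called and pointed both ways. *Spint3* (dd_190) was at 568, 383, 564 and 646 CPM in medial and 883, 1360, 1356 and 851 CPM in lateral intestine. All lateral libraries were above the medial ones, but the difference of −1.01 on the log2 scale (SE 0.22) missed the limit in edgeR's quasi-likelihood test (FDR = 0.0956) and passed in the likelihood ratio test (FDR = 0.00833). *Spint3* (dd_41) ranged from 215 to 1231 CPM in medial and from 559 to 3648 CPM in lateral intestine, with overlapping regions and an FDR of 0.849. *TFPI2* (dd_3453), a tissue factor pathway inhibitor by name, was at 281, 197, 290 and 229 CPM in medial and 195, 190, 195 and 119 CPM in lateral intestine. It was the 1 inhibitor whose medial libraries all lay above the lateral ones, with a log2 fold change of 0.53 (FDR = 0.506), while *podxl2* (dd_28), at −0.15 (95% interval −0.58 to 0.28), overlapped. The transcripts dd_190 and dd_3453 were named after their values were seen.

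Lipid digestion and lipid binding were divided between a few called members and a majority at similar levels. Among 12 triacylglycerol lipases and phospholipases, 1 was medial-higher and 0 lateral-higher (0 lateral-higher also at an unadjusted p under 0.05, by the likelihood ratio test and by DESeq2), and 10 lay within 1.5-fold. The called member, the gastric lipase homolog *lipf* (dd_257) of goblet cells, was at 3181, 3070, 4500 and 3567 CPM in medial and 1104, 966, 1120 and 1284 CPM in lateral intestine. Each medial library was more than 2-fold above each lateral one, and the log2 fold change was 1.67 (SE 0.15, FDR = 0.000535). A second goblet cell lipase, *LIPF* (dd_4693), was at 169, 170, 227 and 220 CPM in medial and 93.2, 119, 84.1 and 98.9 CPM in lateral intestine. Its libraries did not overlap, and its log2 fold change of 0.98 had an FDR of 0.0691 in edgeR's quasi-likelihood test and 0.00351 in the likelihood ratio test. The lysosomal acid lipase *lipa* (dd_122_1_1), placed in basal cells by in situ pattern, was at −0.32 (95% interval −0.80 to 0.16).

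Of 10 ML-domain lipid binders and saposins, which carry single lipids or present them to lysosomal enzymes, 2 were medial-higher and 0 lateral-higher. At an unadjusted p under 0.05, 3 members pointed to medial and 2 to lateral intestine, and the likelihood ratio test and DESeq2 each called 3 medial and 0 lateral. *gm2a* (dd_214_1_1), a ganglioside activator of goblet cells, was at 2088, 1666, 1899 and 1764 CPM in medial and 326, 446, 531 and 341 CPM in lateral intestine (log2 fold change 2.19, SE 0.25, FDR = 0.00226). *Npc2* (dd_4411), a cholesterol-binding protein by name, was at 173, 176, 205 and 217 CPM in medial and 52.6, 43.3, 43.5 and 42.1 CPM in lateral intestine (log2 fold change 2.08, SE 0.17, FDR = 0.000467). In both, every medial library was more than 3-fold above every lateral one. The goblet cell *Npc2* (dd_73), used as a general goblet marker, was at 2141, 1588, 3087 and 2381 CPM in medial and 1269, 946, 973 and 1219 CPM in lateral intestine, and its log2 fold change of 1.07 was not called (FDR = 0.129). *psap* (dd_215), the prosaposin homolog, was at −0.06 (95% interval −0.67 to 0.54), and the median of the list was 0.08.

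Uptake, storage and export of lipid showed no called difference. All 8 members of this list lay within 1.5-fold, with a median of 0.14. The apolipoprotein B homolog *apob-2* (dd_194) was at 3620, 2293, 3389 and 2432 CPM in medial and 3526, 2461, 2793 and 2428 CPM in lateral intestine, with overlapping libraries and a log2 fold change of 0.06 (95% interval −0.27 to 0.38). *Apoltp* (dd_636), another apolipoprotein B homolog, was at 0.38 (95% interval 0.01 to 0.75, FDR = 0.701) and was the 1 member with an unadjusted p under 0.05. The lipid droplet protein *plin5* (dd_154) was at 0.19 (95% interval −0.25 to 0.63). The likelihood ratio test and DESeq2 also called 0 of the 8.

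Intracellular protein breakdown was close to even. Of 12 cathepsins and dipeptidyl peptidases, 11 lay within 1.5-fold, 6 had their whole interval there, and the median was 0.13. *ctsl.1* (dd_48), an abundant cathepsin L, was at 15312, 10810, 14786 and 11299 CPM in medial and 16585, 12247, 13007 and 11757 CPM in lateral intestine, for a log2 fold change of −0.04 (95% interval −0.46 to 0.38). The exception was *ctsf* (dd_456), a cathepsin F, at 1388, 1088, 1793 and 1015 CPM in medial and 623, 400, 613 and 472 CPM in lateral intestine. Its regions did not overlap, its log2 fold change was 1.32 (SE 0.16, FDR = 0.00284), and its non-intestine libraries were between 179 and 199 CPM. All 15 subunits of the proton-pumping V-type ATPase, which acidifies lysosomes, were within 1.5-fold, 13 of them with the whole interval, and the median was 0.14. None of the 15 was called by DESeq2, the likelihood ratio test or edgeR's quasi-likelihood test, and 0 had an unadjusted p under 0.05. The 7 members of lysosome tethering and autophagy gave the same counts of 0, with a median of 0.17, as in *ATG7* (dd_5083) at 0.01 (95% interval −0.43 to 0.44).

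The rapunzel family stood out by its size of effect. Rapunzel genes are known from zebrafish, where one is named for a fin overgrowth mutant, and 3 planarian transcripts carry the name *rpz4*. All 3 were medial-higher. Transcript dd_279, with a goblet in situ pattern, was at 4936, 4249, 8270 and 5113 CPM in medial and 536, 351, 533 and 578 CPM in lateral intestine. Transcript dd_827 was at 3071, 2537, 4351 and 2908 CPM in medial and 308, 206, 301 and 297 CPM in lateral intestine. Transcript dd_634 was at 4461, 3929, 6345 and 4018 CPM in medial and 824, 608, 824 and 916 CPM in lateral intestine. In all 3, animal 3 was the highest medial and animal 2 the lowest lateral library, and reads of similar transcripts could be divided among them. Their log2 fold changes were 3.51 (SE 0.38, FDR = 0.00176), 3.54 (SE 0.41, FDR = 0.00238) and 2.57 (SE 0.32, FDR = 0.00371) in the order given.

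Several further medial-higher transcripts belong to no digestive family. *skpo-2* (dd_122), named for a peroxidase of *Caenorhabditis elegans* although its human match is a teneurin, was at 4614, 3549, 1104 and 2928 CPM in medial and 93.2, 424, 412 and 132 CPM in lateral intestine. Its medial level varied 4-fold, with animal 3 lowest, and the log2 fold change was 3.6 (SE 0.62, FDR = 0.0244). *Plcxd3* (dd_5691), named for a phospholipase-like protein, was at 150, 154, 205 and 169 CPM in medial and 55.1, 44.9, 48.6 and 40.5 CPM in lateral intestine (log2 fold change 1.85, SE 0.16, FDR = 0.000535). *fhl3* (dd_1251), a LIM-domain protein seen throughout the intestine with a medial bias by in situ hybridization, was at 350, 384, 375 and 433 CPM in medial and 110, 183, 178 and 128 CPM in lateral intestine (log2 fold change 1.40, SE 0.21, FDR = 0.0137). Transcript dd_72, with no gene name, was one of the steadiest, at 4846, 5073, 5510 and 5049 CPM in medial and 665, 889, 900 and 791 CPM in lateral intestine (log2 fold change 2.65, SE 0.32, FDR = 0.00284). The unnamed dd_10973, chosen after its values were seen, was at 131, 161, 213 and 169 CPM in medial and 15.7, 22.2, 13.4 and 22.3 CPM in lateral intestine (log2 fold change 3.24, FDR = 0.0426). Its call was lost in each of the 12 settings that left out an animal or a library (FDR between 0.0528 and 0.273). That of *skpo-2* was lost without animals 1, 2 or 4, medial replicates 1, 2 or 4 or lateral replicates 1, 2 or 4 (0.0503 to 0.252). The call of *fhl3* was lost without animals 1, 2 or 3, medial replicate 1 or lateral replicates 1 or 4 (0.0501 to 0.132), and that of dd_72 without animal 4 (0.0525). Tested against a 1.5-fold change by edgeR's glmTreat, *fhl3* and dd_10973 also lost their calls (FDR = 0.0598 and 0.065). Without TMM factors both were lost as well (FDR = 0.0601 and 0.0611).

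Among 4 tested members of the CAP-domain proteins, a family most of whose members are secreted, 1 was medial-higher and 0 were lateral-higher. The likelihood ratio test and DESeq2 each called 2 medial and 0 lateral, the same as at an unadjusted p under 0.05. *Glipr2* (dd_2929) was at 54.4, 60.2, 58.6 and 44.0 CPM in medial and 13.8, 10.7, 13.1 and 11.9 CPM in lateral intestine (log2 fold change 2.13, SE 0.23, FDR = 0.00153). Its non-intestine libraries, between 9.42 and 15.4 CPM, were at the lateral level, so it was not intestine-enriched over both regions. *pi16* (dd_2021), a goblet marker, was at 106, 112, 133 and 130 CPM in medial and 38.8, 63.5, 41.3 and 50.1 CPM in lateral intestine. Its regions did not overlap, and its log2 fold change was 1.3 (SE 0.30, FDR = 0.125), with an FDR of 0.00464 by the likelihood ratio test, 0.00652 by DESeq2 and 0.0486 by edgeR's quasi-likelihood test without animal 2.

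The most abundant lateral-higher transcript was *nid2* (dd_25), named for nidogen 2, a basement membrane protein of vertebrates, but with a goblet cell in situ pattern. It was at 2039, 1427, 2336 and 1912 CPM in the medial libraries, 18132, 14259, 15517 and 14143 CPM in the lateral ones and 85.3, 143, 215 and 252 CPM in non-intestine. Each lateral library was more than 6-fold above each medial one, and the log2 fold change was −3.04 (SE 0.28, FDR = 0.000679). It was the 1 call of edgeR's quasi-likelihood test among 20 matrix and adhesion transcripts. In the lateral direction, 3 of the 20 had an unadjusted p under 0.05 and 3 were called by the likelihood ratio test and 3 by DESeq2, against 0 in the medial direction by each of these. The tenascin homologs *Tnxb* (dd_1144) and *tnx* (dd_3632) were at 0.06 (95% interval −0.25 to 0.37) and 0.30 (95% interval −0.15 to 0.75). The median of the list was 0.00.

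The other lateral-higher intestine-enriched transcripts had no gene name. Transcript dd_463 was at 248, 214, 176 and 326 CPM in medial and 1673, 2622, 1838 and 1502 CPM in lateral intestine (log2 fold change −2.94, SE 0.30, FDR = 0.00119). Transcript dd_1401, of goblet cells, was at 30.3, 61.9, 18.9 and 22.7 CPM in medial and 165, 167, 202 and 153 CPM in lateral intestine (log2 fold change −2.51, SE 0.32, FDR = 0.00398). Lateral levels of dd_1401 were even across animals, while animal 2 was highest in medial intestine, and the call was lost without animals 3 or 4 (FDR = 0.0518 and 0.0525). Transcript dd_6318, which completes the set of 8 and was chosen after its values were seen, was at 12.4, 13.4, 9.93 and 13 CPM in medial and 66.6, 149, 162 and 71.3 CPM in lateral intestine (log2 fold change −3.05, SE 0.31, FDR = 0.00119).

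Among transcripts with an in situ pattern in the annotation, calls were found mostly in goblet cell transcripts. Such a pattern was at hand for 8 of the 19 medial-higher and 4 of the 8 lateral-higher intestine-enriched transcripts. The cell type of the others is not known here. Of 17 goblet transcripts tested, 7 were medial-higher and 4 lateral-higher (11 and 4 by the likelihood ratio test and by DESeq2), and the regions did not overlap in 15, with medial above in 11 and lateral above in 4. Over all transcripts tested, 0.434% were medial-higher, 0.206% were lateral-higher and 3.71% had regions that did not overlap. Their log2 fold changes ran from −3.04 to 3.69 around a median of 1.07, and 1 of the 17, *ct14378*, lay within 1.5-fold. Of 62 transcripts with a uniform pattern, 1 was medial-higher (*fhl3*) and 59 lay within 1.5-fold, around a median of 0.12. Of 14 basal transcripts, 0 were called in either direction by edgeR's quasi-likelihood test, the likelihood ratio test or DESeq2, 1 had an unadjusted p under 0.05, in the lateral direction, and the median was −0.17. The basal transcript *zgc:172053* (dd_10_1_1), a collectin homolog, was at 18993, 15038, 22267 and 20061 CPM in medial and 23882, 16572, 21892 and 28640 CPM in lateral intestine, with overlapping libraries and a log2 fold change of −0.24 (95% interval −0.59 to 0.10). These in situ probes, and the 16 medial and 8 lateral transcripts that the study selected for RNA interference, were chosen with the levels of these libraries in view and are no independent evidence of direction. Of those 16 transcripts 12 were medial-higher, and of the 8 transcripts 5 were lateral-higher.

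The 4 uncalled goblet transcripts whose regions did not overlap all pointed to medial intestine. Besides dd_4693, dd_73 and *pi16* they included the unnamed dd_131, at 5070, 3392, 3588 and 3929 CPM in medial and 1694, 2404, 2278 and 1512 CPM in lateral intestine. Its log2 fold change was 1.03 (SE 0.20), with an FDR of 0.0603 by edgeR's quasi-likelihood test, 0.0391 without medial replicate 2, and 0.00327 by the likelihood ratio test.

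**Figure D3:**
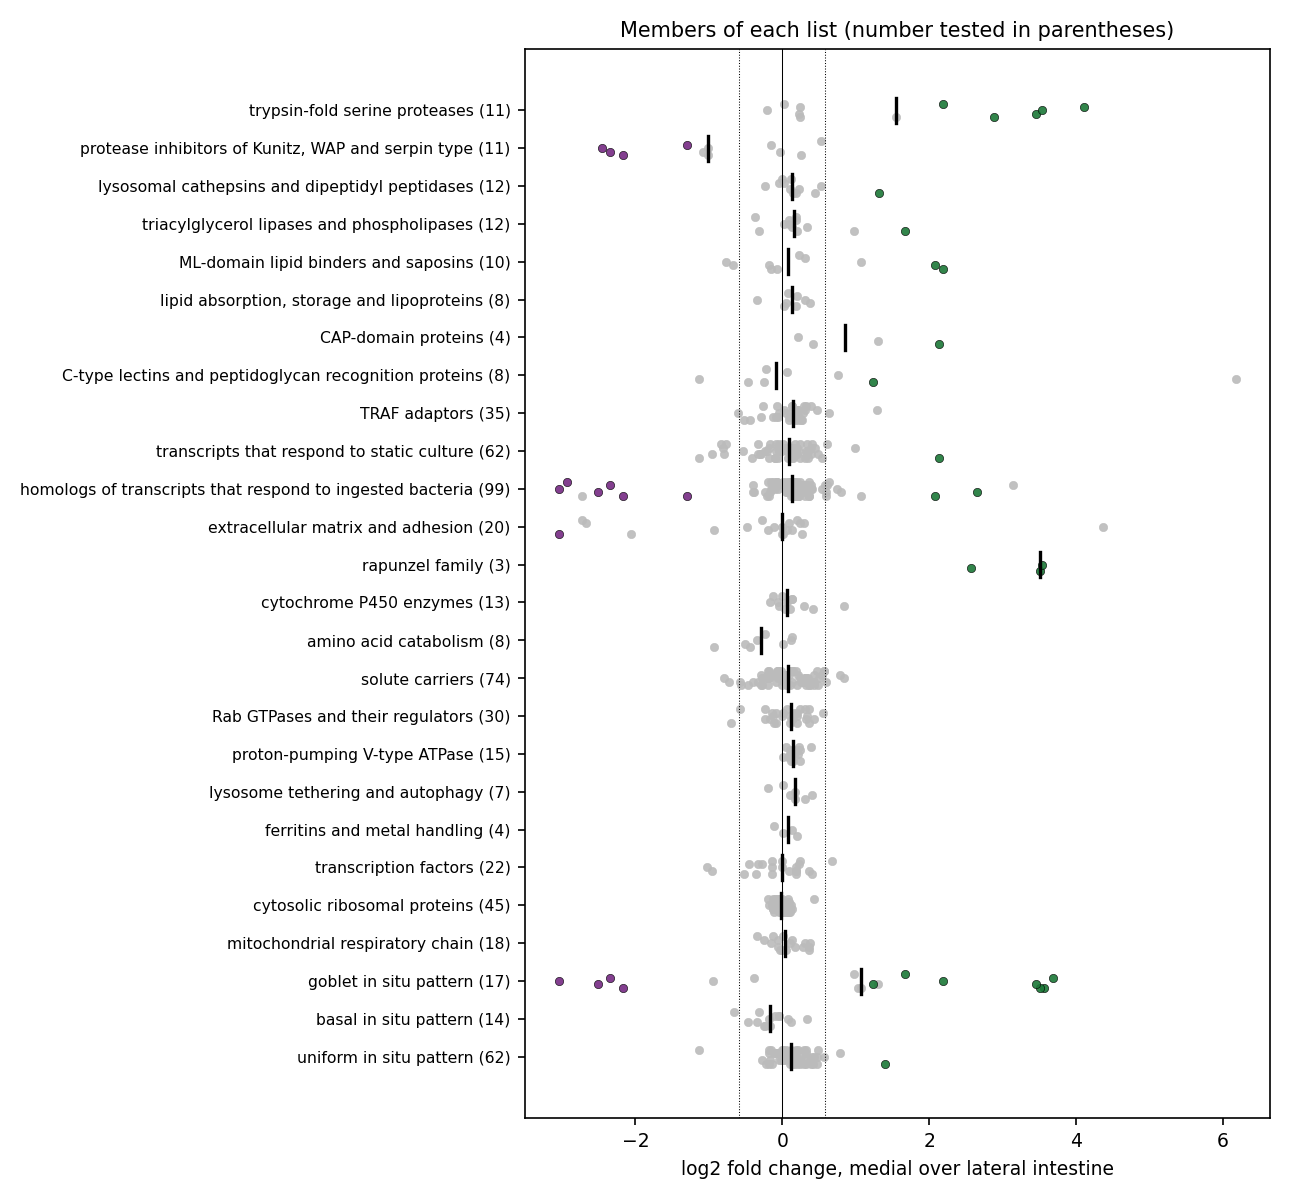
Log2 fold change of medial over lateral intestine for the tested members of 26 lists, with 1 point for each transcript, green if medial-higher, purple if lateral-higher and grey if not called. Black bars are list medians and dotted lines mark 1.5-fold. The rapunzel family lies to the right (median 3.51). Serine proteases lie to the right by their median (1.55), with 5 of 11 within 1.5-fold. Protease inhibitors lie to the left by their median (−1.01), with 4 of 11 within 1.5-fold, and goblet transcripts lie to both sides. Ribosomal proteins (median −0.02) and V-type ATPase subunits (median 0.14) lie near 0.

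Defence-related transcripts were called in small numbers. Of 8 C-type lectins and peptidoglycan recognition proteins, 1 was medial-higher. *pgrp-lb* (dd_1523), a peptidoglycan recognition protein of goblet cells, binds bacterial cell wall fragments in insects. It was at 297, 277, 307 and 271 CPM in medial and 113, 150, 118 and 112 CPM in lateral intestine (log2 fold change 1.24, SE 0.18, FDR = 0.0115). The regions did not overlap, and the call was lost without animals 1 or 4 or lateral replicates 1 or 4 (FDR = 0.108, 0.133, 0.0677 and 0.0826). It was also lost when tested against a 1.5-fold change by edgeR's glmTreat (FDR = 0.0769). The collectin-like *colec11* (dd_58) was at −0.23 (95% interval −0.62 to 0.17) and *hbl4* (dd_33) at 0.07 (95% interval −0.41 to 0.54). Of 35 TRAF adaptors, intracellular relays of tumour necrosis factor and Toll-like receptors, 0 were called by any of the 3 tests, 0 had an unadjusted p under 0.05, and 32 lay within 1.5-fold around a median of 0.14.

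Another list holds 99 transcripts, 86 of them intestine-enriched here, that match transcripts raised in a related planarian, *Dugesia japonica*, after the ingestion of bacteria. Of these, 2 were medial-higher and 6 lateral-higher, with a median of 0.13. In the whole intestine-enriched set the shares were 1.18% and 0.496%. The members called lateral-higher were *nid2*, *eppin*, *spint3*, *Wfikkn2*, dd_463 and dd_1401, and those called medial-higher were *Npc2* (dd_4411) and dd_72, all described above. By the name they carry, 3 of the lateral-higher members are protease inhibitors and 1 is a matrix protein. Whether these members act in defence was not tested. A list of 62 transcripts that respond to static culture, a change of housing that alters the bacteria around the animals, held 1 medial-higher member (*Glipr2*) and 0 lateral-higher, with 2 at an unadjusted p under 0.05 in each direction. The likelihood ratio test and DESeq2 also called 1 and 0. The study had drawn both lists, and that of TRAF adaptors, from its own intestine-enriched set on these samples.

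Transport, metabolism and regulation gave no calls. Among 74 solute carriers, which move nutrients and ions across membranes, 0 were called by DESeq2, the likelihood ratio test or edgeR's quasi-likelihood test, and 69 lay within 1.5-fold around a median of 0.08. At an unadjusted p under 0.05 there were 2 higher in medial and 1 higher in lateral intestine. The zinc transporter *Slc39a1* (dd_5702) had 185 ± 35.8 CPM in the medial and 196 ± 47.9 CPM in the lateral libraries (log2 fold change −0.06, 95% interval −0.45 to 0.32). Of 30 Rab GTPases and regulators of vesicle traffic, 13 cytochrome P450 enzymes and 4 ferritins and metal carriers, 0 were called by any of the 3 tests and 0 had an unadjusted p under 0.05. Of 8 enzymes of amino acid catabolism, edgeR's quasi-likelihood test called 0, and the likelihood ratio test and DESeq2 each called 1, in the lateral direction, and *hal* (dd_2219), which breaks down histidine, was at 0.13 (95% interval −0.33 to 0.59).

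Of 22 transcription factors, 0 were called by any of the 3 tests, 1 in each direction had an unadjusted p under 0.05, and the median was 0.00. *hnf-4* (dd_1694), a nuclear receptor used as a general intestinal marker, was at 159, 178, 198 and 170 CPM in medial and 129, 126, 132 and 146 CPM in lateral intestine. All medial libraries were above the lateral ones, by a log2 fold change of 0.40 (95% interval 0.10 to 0.71) that did not pass (FDR = 0.505). *nkx2.2* (dd_2716), a homeobox factor of the intestine, was at −0.14 (95% interval −0.52 to 0.23).

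Transcripts used by all cells served as a reference for scale. Of 45 cytosolic ribosomal proteins tested, 42 had their whole 95% interval within 1.5-fold, and their median was −0.02. Of 18 respiratory chain subunits, 10 did, with a median of 0.03. Both lists had 0 calls by edgeR's quasi-likelihood test, the likelihood ratio test and DESeq2, and 0 at an unadjusted p under 0.05.

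Outside the intestine-enriched set, 38 transcripts were medial-higher and 19 lateral-higher, and they differed in character from the 27 above. Of the 38, 2 had a gene name (*Glipr2* and *TMPRSS5*) and 3 had regions that did not overlap. Animals 2 and 4 were both above animals 1 and 3 in 34 of the 38 in medial intestine, in 31 in lateral intestine and in 36 in non-intestine. Their summed level was 21634, 101767, 17469 and 41039 CPM in medial, 2368, 28787, 777 and 7067 CPM in lateral and 5080, 35464, 8672 and 32123 CPM in non-intestine. Medial intestine was thus above lateral intestine in each animal, by 9.14-, 3.54-, 22.5- and 5.81-fold, and animals 2 and 4 were the highest in each tissue. The 38 were called by the difference between regions, so the direction of their sums is no further evidence of it. An example is dd_811, at 0.0851, 194, 12.1 and 246 CPM in medial, 0, 2.11, 0.0370 and 0.464 CPM in lateral and 0.0332, 79.3, 3.91 and 62.8 CPM in non-intestine, with overlapping regions and an FDR of 6.50e-05 with the block and 0.255 without it. Without the block, the number of medial-higher transcripts fell from 57 to 24, of which 22 were among the 57, and the 19 intestine-enriched transcripts were all kept. The number was also 21, 29 and 18 without animals 1, 3 and 4, 32 and 34 without medial replicates 1 and 3, and 21 and 16 without lateral replicates 1 and 4.

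**Figure D4:**
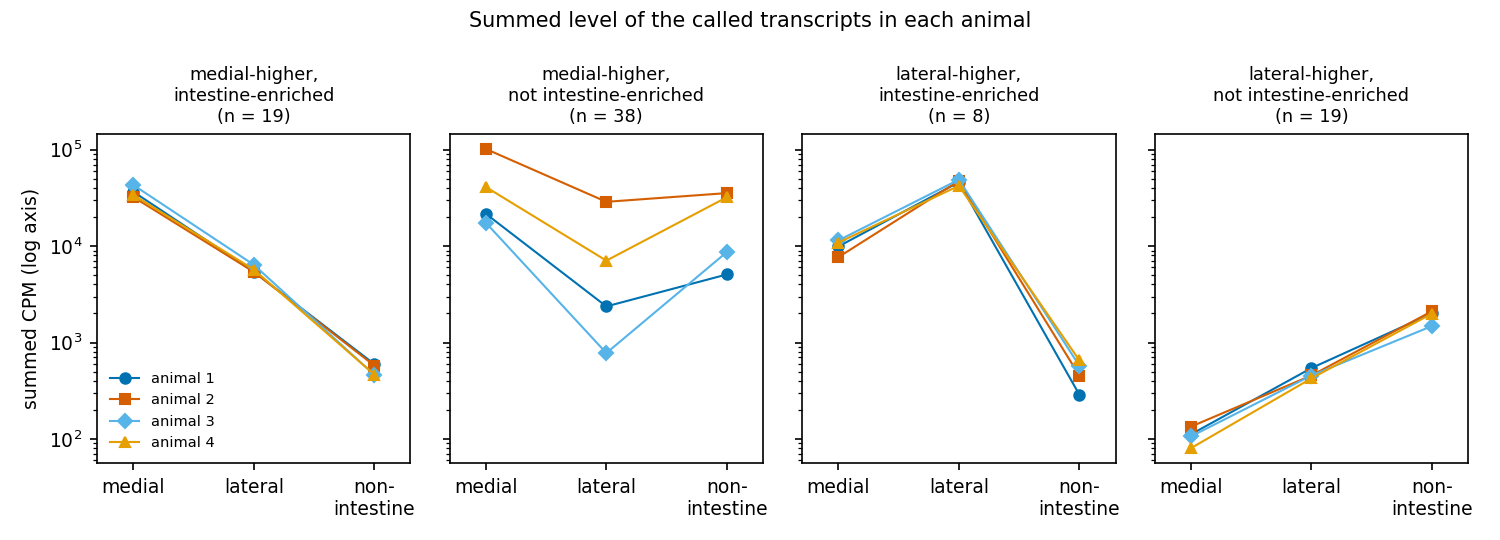
Summed CPM, on a log axis, of the called transcripts in medial intestine, lateral intestine and non-intestine, with 1 line for each animal. Each set was called by the difference between the regions in these libraries, so its direction is given by that choice. The intestine-enriched sets of 19 and 8 run close together in all 4 animals, whereas the 38 medial-higher transcripts outside that set are higher in animals 2 and 4 than in animals 1 and 3, and the 19 lateral-higher ones peak in non-intestine.

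The 19 lateral-higher transcripts outside the set were higher in non-intestine than in either region in 18 cases, and 0 of them had a gene name. Their summed level was 111, 134, 106 and 80.1 CPM in medial, 543, 455, 455 and 425 CPM in lateral and 2000, 2110, 1480 and 1993 CPM in non-intestine. Medial and lateral libraries did not overlap in any of the 19, and 6 had no count in any medial library. They too were called by the difference between regions, so this separation is no further evidence of it. For dd_6337, lateral intestine was at 4.11, 5.64, 0.888 and 1.65 CPM. The mean of these, 3.07 CPM, was 20.1-fold above a floor of 3 counts in a medial library. Over a wider set of 1189 transcripts (9.05% of those tested) more than 8-fold higher in non-intestine, the sums were 1604, 4273, 1288 and 2804 CPM in medial, 2316, 3824, 2026 and 2083 CPM in lateral and between 61602 and 68756 CPM in non-intestine. The sum was higher in lateral intestine in animals 1 and 3 and in medial intestine in animals 2 and 4. Transcript by transcript the set leaned to lateral intestine. The median log2 fold change was −0.93, with 211 lateral against 37 medial at an unadjusted p under 0.05, and 65 against 3 whose regions did not overlap. Over all 13136 transcripts the median was −0.04, and these counts were 582 against 344 and 310 against 178. Of the members of the set, 7 (0.589%) were called medial-higher and 13 (1.09%) lateral-higher, against 0.434% and 0.206% of all transcripts. Summed over 9 transcripts of ciliated cells, which lie outside the intestine, medial libraries had between 3.23 and 11.9 CPM, lateral libraries between 8.36 and 14.1 CPM and non-intestine libraries between 82.9 and 124.1 CPM. Of these 9, 3 had a positive log2 fold change, the median was −1.48, and edgeR's quasi-likelihood test called 0 of them, while the likelihood ratio test and DESeq2 each called 1 as lateral-higher. How much captured neighbouring tissue contributed to these 19 calls was not tested. The number of lateral-higher transcripts was 44 without the block, and 12, 16 and 13 without animals 1, 3 and 4 and 14 and 15 without lateral replicates 1 and 4. With only the 8 intestinal libraries it was 25, of which 14 were among the 27 of the main fit. The call of dd_6337 was lost there (FDR = 0.184 by edgeR's quasi-likelihood test).

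The most abundant transcripts of the intestine were called in neither direction. The unnamed dd_1, with a uniform intestinal pattern, was at 153330, 127360, 227841 and 190145 CPM in medial and 152734, 116823, 177644 and 190023 CPM in lateral intestine (log2 fold change 0.11, 95% interval −0.33 to 0.55). *CG3884* (dd_75) and *CG44251* (dd_44) were at 0.08 (95% interval −0.34 to 0.50) and 0.05 (95% interval −0.43 to 0.54), and *act-2* (dd_3), an actin, was at 0.10 (95% interval −0.16 to 0.36). Transcript dd_7, which is not intestine-enriched and took up to 25.7% of the counts of an intestinal library and up to 26.9% of a non-intestine library, varied more between animals than between regions. It was at 288382 and 246077 CPM in medial intestine of animals 1 and 3 and at 143210 and 108272 CPM in animals 2 and 4, with 324456, 287099, 140506 and 122942 CPM in lateral intestine of the same animals in that order.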

How the data were processed

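Reads were trimmed with BBDuk, aligned with Bowtie2 2.3.1 to the 28069 dd_Smed_v6 transcripts and counted per transcript with SAMtools 1.3, per the labels and the study's methods. The authors deposited raw read counts, which were used here. Their second table, of normalized values and their own comparisons with non-intestine made in edgeR 3.8.6, was not used. Counts were refitted with edgeR 4.0.16 under R 4.3.3, with DESeq2 1.42.0 as an alternative, using all 12 libraries, TMM factors, a term for tissue and a block for the animal, with p-values adjusted by Benjamini-Hochberg over 13136 transcripts. Standard errors were derived from the F statistic. The code was tested on simulated data.

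The block follows the labels and methods, since libraries with the same number come from 1 animal. Deviations of medial and lateral libraries from their group means correlated between 0.0332 and 0.172 within animals and between −0.322 and 0.237 across animals, over transcripts. No replicates were duplicates. Totals ranged from 20227187 to 33296270 counts. TMM factors were 0.765 to 0.923 in medial, 0.794 to 0.985 in lateral and 1.21 to 1.50 in non-intestine, and the common biological coefficient of variation was 0.636. Without molecular identifiers, the floor of 3 counts covers counting error only.

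Gene names, in situ patterns and lists came from the study's tables, held here only in part: 3781 of the tested transcripts had an entry and 2848 a name. Lists were built from words in these descriptions or from whole tables. The study's selections of medial and lateral transcripts were among these sources, so list counts and medians are no independent evidence of direction. Members and lists were chosen with earlier results of these data known. Named transcripts were those of largest fold change with or without a name, called list members, the 3 most abundant members of each list, those the study selected, and the 10 most abundant, with exceptions stated where they occur. Alternatives changed the block, libraries, test, normalization, filter and thresholds. A called transcript is not reported here.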

Additional observations from a re-analysis of the deposited data

Results flagged for a closer look

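In 5 of 80 groups of 4 libraries, 1 library lay further from the other 3 than Dixon's 95% critical value for the gap over the range, where chance gives about 1 in 20. For *rpz4* (dd_827), lateral intestine of animal 2 was at 206 CPM against 297 to 308 CPM (gap over range 0.894). For *Npc2* (dd_4411), lateral intestine of animal 1 was at 52.6 CPM against 42.1 to 43.5 CPM (0.862). For *pgrp-lb* (dd_1523), lateral intestine of animal 2 was at 150 CPM against 112 to 118 CPM (0.839). For *spint3* (dd_300), medial intestine of animal 4 was at 1241 CPM against 700 to 777 CPM (0.858). The summed level of the 1189 transcripts more than 8-fold higher outside the intestine was 3824 CPM in lateral intestine of animal 2, against 2026 to 2316 CPM in the others (0.839). In the 4 single transcripts, the library that stood apart remained on its own side of the medial and lateral levels.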

How the results depend on the processing

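The number of medial-higher transcripts (57) was 24 without the replicate block, 92 with only the 8 intestinal libraries, 27 with only those and no block, 116 by the likelihood ratio test, 128 by DESeq2, 92 with no filter and 20 at an FDR under 0.01, and between 16 and 58 as animals or libraries were left out. That of lateral-higher transcripts (27) was 44, 25, 12, 160, 207, 82 and 13 in the same order, and between 12 and 29. With only the 8 intestinal libraries, 56 of the 92 and 14 of the 25 were among the calls of the main fit. The 19 and 8 intestine-enriched calls were all kept there. Among intestine-enriched transcripts, the 19 medial-higher became 32 by DESeq2, 12 at an FDR under 0.01 and between 11 and 19 with animals or libraries left out, and the 8 lateral-higher were between 6 and 8. The intestine-enriched set of 1613 was 960 without TMM factors and between 1325 and 1447 without an animal, and the 1189 transcripts more than 8-fold higher outside were between 465 and 541. Alternatives for the sets of intestine-enriched transcripts and of transcripts higher outside, and for transcripts outside the naming rule were chosen after seeing the data. No called transcript named here changed direction under any alternative run. Without the block all 27 intestine-enriched calls were kept, and of the named transcripts *TMPRSS5*, dd_811, dd_688, dd_1129, dd_3341 and dd_367 lost their call (FDR between 0.238 and 0.527 by edgeR). Among named transcripts, calls were lost in 148 and gained in 25 combinations of transcript and alternative and kept their side of the threshold in 2676, and 154 of 1966 uncalled values changed sign. Calls were lost at low and high levels: dd_6337, at a few CPM, lost its call in 8 alternatives and *skpo-2* (dd_122), at a medial mean of 3049 CPM, in 9.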
